A study of Mus musculus with 6 samples.

Results

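The histone deacylases Hdac1, Hdac2 and Hdac3 and the sirtuins Sirt1 to Sirt7 were examined in RNA-seq libraries of mouse cultures labelled FGSCs (female germline stem cells). The 10 genes were chosen by name, 3 class I histone deacetylases and 7 sirtuins, from the 55401 genes of the expression table. All 10 reached a mean of at least 1 FPKM, the level that 10661 genes reached and above which genes were tested. FPKM scales the fragments of a gene by gene length and by the depth of the library. Levels of different genes can then be set side by side, within the limits of the length used.

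The study compared 3 control libraries, untreated, with 3 libraries of cells given 1 μM metformin for 24 h. All 6 came from C57BL/6 cells beyond passage 20, kept on growth-arrested STO feeder cells, a mouse embryonic fibroblast line, in medium with serum and growth factors. The sources do not say whether libraries of a group came from separate cultures, so p-values measure the spread between these libraries, which may be technical. The question behind the series was how metformin acts on the growth of these cells, with β-hydroxybutyrylation of histones as the mark under study.

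Histone deacetylases of class I use zinc to take acetyl groups off lysines. HDAC1, HDAC2 and HDAC3 work inside large complexes that bring them to chromatin. HDAC1 and HDAC2 are closely related catalytic subunits of the NuRD, SIN3, CoREST and MiDAC complexes, and HDAC3 is that of the NCoR/SMRT complex. Sirtuins use NAD+ as a co-substrate, which ties their activity to the metabolic state of the cell. SIRT1, SIRT6 and SIRT7 act mainly in the nucleus, SIRT2 mainly in the cytoplasm and SIRT3, SIRT4 and SIRT5 in mitochondria. HDAC1, HDAC2, HDAC3 and several sirtuins are also known to remove longer acyl groups from lysines, β-hydroxybutyryl among them. RNA levels say nothing of the activity of these enzymes.

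The sequence of Hdac1 bears on how far its level can be trusted. The table lists Gm10093, named Hdac1-ps and classed as a pseudogene by RefSeq but as protein-coding in GENCODE M1, from 78491582 to 78493025 of chromosome 17 (GRCm38, plus strand). The Hdac1 transcript was 98.8% identical to this locus over 2004 aligned columns when searched in the NCBIM37 genome. In the coding sequence 9 of 1449 columns differed and none was a gap. The longest identical stretch ran for 450 bases, so many fragments of either gene fit both. The start of the coding sequence and the 90-base window with the most differences are shown from the NCBIM37 genome and its GENCODE transcript, in the direction of transcription, with differing bases in capitals. The starts, bases 85 to 174 of the Hdac1 transcript and chr17:78890922-78891011 on the plus strand, did not differ.
Hdac1, start: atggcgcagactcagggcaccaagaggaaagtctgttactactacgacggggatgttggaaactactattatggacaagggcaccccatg
Gm10093, start: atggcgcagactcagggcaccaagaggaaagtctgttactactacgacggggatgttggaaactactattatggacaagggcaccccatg
The window from base 477 to 566 of the transcript held 6 of the differences, against chr17:78891314-78891403 on the plus strand.
Hdac1, window: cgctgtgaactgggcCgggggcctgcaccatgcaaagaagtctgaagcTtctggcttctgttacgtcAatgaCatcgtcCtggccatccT
Gm10093, window: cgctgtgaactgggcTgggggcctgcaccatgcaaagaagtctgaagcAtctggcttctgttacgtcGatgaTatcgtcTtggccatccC

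Gm10093 was listed at 34.41, 34.88 and 32.69 FPKM in control libraries 1 to 3 and at 32.62, 33.5 and 34.77 FPKM in metformin libraries 1 to 3. It stood above Hdac1 in 6 of 6 libraries, at 1.91 to 2.14 times its FPKM. How the counting treated fragments that fit both genes is not given in the sources used here, and their listed levels are uncertain for this reason. 3 further stretches, at 91.5%, 93.8% and 95.2% identity, were found for Hdac1 in NCBIM37. None of them met a GENCODE M1 exon of a gene in the expression table, and later annotations were not searched there. For the other 9 genes no second locus of at least 90% identity over at least 200 bases was found.

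Hdac1 (ENSMUSG00000028800, from 129516104 to 129542713 of chromosome 4, GRCm38, minus strand) was listed at 16.39, 16.6 and 15.71 FPKM in control libraries and at 17.08, 16.6 and 16.21 FPKM in metformin libraries. The means were 16.2 ± 0.465 FPKM and 16.6 ± 0.436 FPKM (SD, n = 3 each). The groups overlapped, with control library 3 the lowest and metformin library 1 the highest. The log2 fold change of metformin over control on the scale of log2(FPKM + 1) was 0.03 (95% interval -0.05 to 0.12), with an adjusted p of 0.770 in limma after Benjamini-Hochberg adjustment over all tested genes. Leaving out 1 library at a time moved it between 0.01, without control library 3, and 0.05, without metformin library 3.

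If all fragments of Gm10093 were counted as Hdac1, the joint level over the length of the Hdac1 mRNA would be 40.3 ± 1.28 FPKM in control and 40.5 ± 0.343 FPKM in metformin libraries. Over all annotated exons of Hdac1 it would be 30.5 ± 0.948 and 30.7 ± 0.0748 FPKM (SD, n = 3 each). Both joint levels lie above Hdac2 and Hdac3, whereas Hdac1 as listed lies below them, so the order of these 3 genes depends on this assignment. The difference between the groups hardly depends on it, with a log2 fold change of 0.0053 for the joint value.

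**Figure D1:**
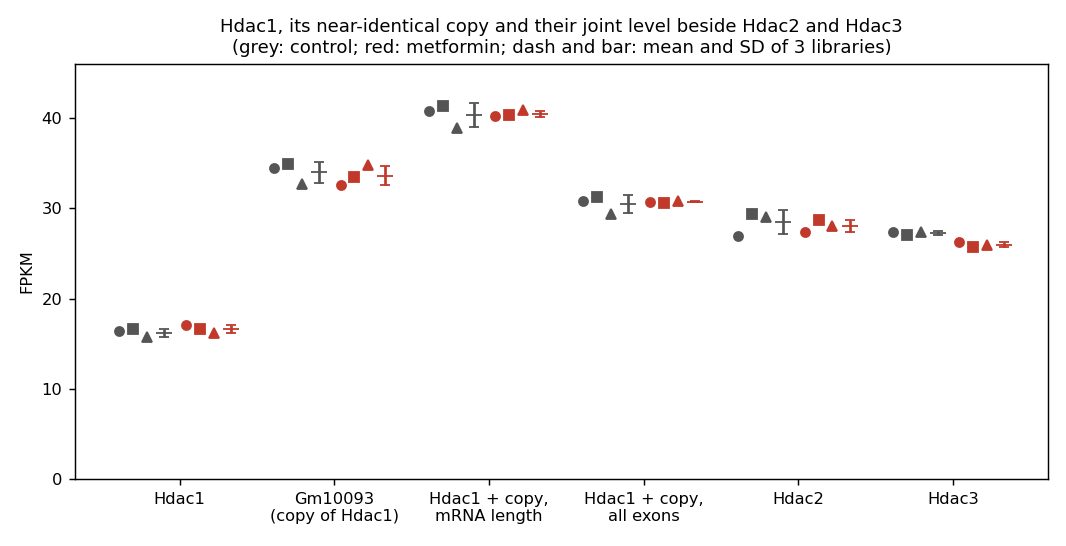
FPKM (vertical axis, from 0) of Hdac1, of Gm10093, of the 2 counted together over the Hdac1 mRNA or over all its exons, and of Hdac2 and Hdac3, with control libraries in grey, metformin libraries in red, circles, squares and triangles for repeats 1, 2 and 3, and a dash with a bar for the mean and SD. Hdac1 as listed sits at 15.71 to 17.08 FPKM, below Hdac2 and Hdac3, and the joint values sit above them.

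Hdac2 (ENSMUSG00000019777, from 36974544 to 37001889 of chromosome 10, GRCm38, plus strand) had the highest mean FPKM of the 10 genes and stood above 80.1% of the tested genes. Control libraries held 26.93, 29.4 and 29.01 FPKM and metformin libraries 27.33, 28.68 and 28.03 FPKM. Library 1 was the lowest of each group, and the groups overlapped. Metformin over control gave a log2 fold change of -0.02 (95% interval -0.11 to 0.07, adjusted p of 0.887 in limma).

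Hdac3 (ENSMUSG00000024454, on chromosome 18 from 37935844 to 37955016, GRCm38, minus strand) held 27.4, 27.05 and 27.41 FPKM in control libraries and 26.24, 25.72 and 25.91 FPKM in metformin libraries. Every metformin library lay below every control library, and the means were 27.3 ± 0.205 and 26.0 ± 0.263 FPKM (SD, n = 3 each), a difference of -4.87%. The log2 fold change was -0.07 with a standard error of 0.02 (95% interval -0.13 to -0.01). The unadjusted limma p was 0.0257 over all 6 libraries by the moderated fit across genes, and after Benjamini-Hochberg adjustment it was 0.398, so the difference did not pass the test. The exact two-sided permutation p was 0.1, the smallest that 3 libraries against 3 can give.

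The sum of Hdac1, Hdac2 and Hdac3 as listed was 72.0 ± 1.17 FPKM in control and 70.6 ± 0.427 FPKM in metformin libraries (SD, n = 3 each), and the groups overlapped. Hdac2 was higher than Hdac3 in 5 of 6 libraries, and the ranges of these neighbours overlapped. Hdac3 was 1.62 times Hdac1 as listed, and their ranges over the 6 libraries did not overlap.

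Sirt1 (ENSMUSG00000020063, from 63319005 to 63381704 of chromosome 10, GRCm38, minus strand), a nuclear deacetylase of histones and transcription factors, had the highest mean FPKM of the sirtuins. It held 10.33, 10.41 and 10.56 FPKM in control libraries and 9.1, 10.07 and 9.85 FPKM in metformin libraries. All metformin libraries lay below all control libraries, and metformin library 1 lay furthest below. The means were 10.4 ± 0.117 and 9.67 ± 0.509 FPKM (SD, n = 3 each), a difference of -7.28%. The log2 fold change was -0.10 with a standard error of 0.04 (95% interval -0.20 to 0.00155), with an adjusted p of 0.467 in limma, and the exact permutation p was 0.1. Without metformin library 1 the log2 fold change was -0.06.

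Sirt6 (ENSMUSG00000034748, from 81621785 to 81627797 of chromosome 10, GRCm38, minus strand), a chromatin-bound deacetylase and long-chain deacylase with a part in DNA repair and glucose metabolism, differed in the opposite direction. Control libraries held 5.25, 5.36 and 5.6 FPKM and metformin libraries 5.83, 5.83 and 6.4 FPKM. All metformin libraries lay above all control libraries, with metformin library 3 the highest. The means were 5.40 ± 0.179 and 6.02 ± 0.329 FPKM (SD, n = 3 each), a difference of 11.4%. Its log2 fold change was 0.13 with a standard error of 0.05 (95% interval 0.01 to 0.25). The adjusted p in limma was 0.423, and the exact permutation p was 0.1.

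Sirt7 (ENSMUSG00000025138, from 120618372 to 120625240 of chromosome 11, GRCm38, minus strand), a mainly nucleolar deacylase, held 8.12, 7.76 and 7.29 FPKM in control libraries and 8.51, 7.28 and 8.04 FPKM in metformin libraries. Metformin library 1 was the highest and metformin library 2 the lowest of the 6, and the control libraries lay between them. For this gene the log2 fold change was 0.03 (95% interval -0.11 to 0.18, adjusted p of 0.881 in limma). The annotated spans of Sirt7 and Mafg, a transcription factor gene on the same strand, overlap by 124 bases, introns included.

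Sirt2 (ENSMUSG00000015149, from 28766735 to 28788661 of chromosome 7, GRCm38, plus strand), known as a tubulin deacetylase, held 8.98, 8.87 and 9.12 FPKM in control libraries and 8.77, 10.26 and 9.81 FPKM in metformin libraries. Metformin library 1 was the lowest of the 6, and the other metformin libraries were the highest. The means were 8.99 ± 0.125 and 9.61 ± 0.764 FPKM (SD, n = 3 each), and the log2 fold change was 0.08 (95% interval -0.05 to 0.22, adjusted p of 0.615 in limma). It was 0.14 without metformin library 1 and 0.04 without metformin library 2. The annotated span of Sirt2 overlaps by 778 bases that of Nfkbib, an inhibitor of NF-κB encoded on the opposite strand. Nfkbib was listed at 18.5 ± 0.571 FPKM in control and 21.7 ± 1.30 FPKM in metformin libraries (SD, n = 3 each), without overlap between the groups. Its log2 fold change was 0.22 with an adjusted p of 0.301 in limma. Whether the counting used strand is not given in the sources used here. Without strand, fragments from exons of both genes in the shared bases could not be told apart. Spans include introns, and how much of the overlap is exon was not examined.

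Of the 3 mitochondrial sirtuins, Sirt3, the main deacetylase of the organelle, had the highest level. Sirt3 (ENSMUSG00000025486, from 140863666 to 140882309 of chromosome 7, GRCm38, minus strand) held 6.86, 6.53 and 6.7 FPKM in control libraries and 6.75, 6.96 and 7.27 FPKM in metformin libraries. The groups overlapped at metformin library 1, and the log2 fold change was 0.05 (95% interval -0.05 to 0.15, adjusted p of 0.683 in limma), or 0.03 without metformin library 3. The annotated span of Sirt3 overlaps that of Ric8 by 707 bases and that of Psmd13 by 342 bases, both on the opposite strand. Psmd13 was listed far above Sirt3, at 42.4 ± 1.57 FPKM in control libraries (SD, n = 3).

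Sirt4 (ENSMUSG00000029524, from 115478010 to 115484725 of chromosome 5, GRCm38, minus strand), a deacylase that acts on leucine and glutamate metabolism, had the lowest mean of the 10 genes. It held 1.71, 1.63 and 1.52 FPKM in control libraries and 1.93, 1.64 and 1.87 FPKM in metformin libraries. The groups overlapped at metformin library 2, and the log2 fold change was 0.10 (95% interval -0.08 to 0.28, adjusted p of 0.670 in limma).

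Sirt5 (ENSMUSG00000054021, from 43365496 to 43395203 of chromosome 13, GRCm38, plus strand), which removes succinyl, malonyl and glutaryl groups, held 1.9, 1.91 and 1.85 FPKM in control libraries and 1.78, 1.97 and 2.09 FPKM in metformin libraries. The metformin libraries spanned the control libraries on both sides. Its log2 fold change was 0.03 (95% interval -0.14 to 0.19, adjusted p of 0.914 in limma).

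The depth limits both of these genes most. At an estimated 13410000 to 14030000 fragments per library, the level of Sirt4 corresponds to about 42.6 to 57.0 fragments in a library and that of Sirt5 to about 36.2 to 57.5, depending on the exon length used. The spread from counting alone is then up to 15.3% for Sirt4 and 16.6% for Sirt5, which is more than the SD between libraries of either group. For Hdac2, at about 783 fragments on its mRNA length, it is 3.57%. On the same basis it is 3.68% for Hdac3 and 8.18% for Sirt6, again more than the SD of either group. Their group means differed by -4.87% and 11.4%. For Sirt1 it is 4.03%, above the control SD of 1.12% and below the metformin SD of 5.26%. Hdac1 and Sirt3, at 4.65% and 8.50%, also lie above the SD of both groups. With a pseudocount of 0.1 in place of 1, which understates low genes less, the interval of Sirt4 reached from 0.917-fold to 1.35-fold.

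**Figure D2:**
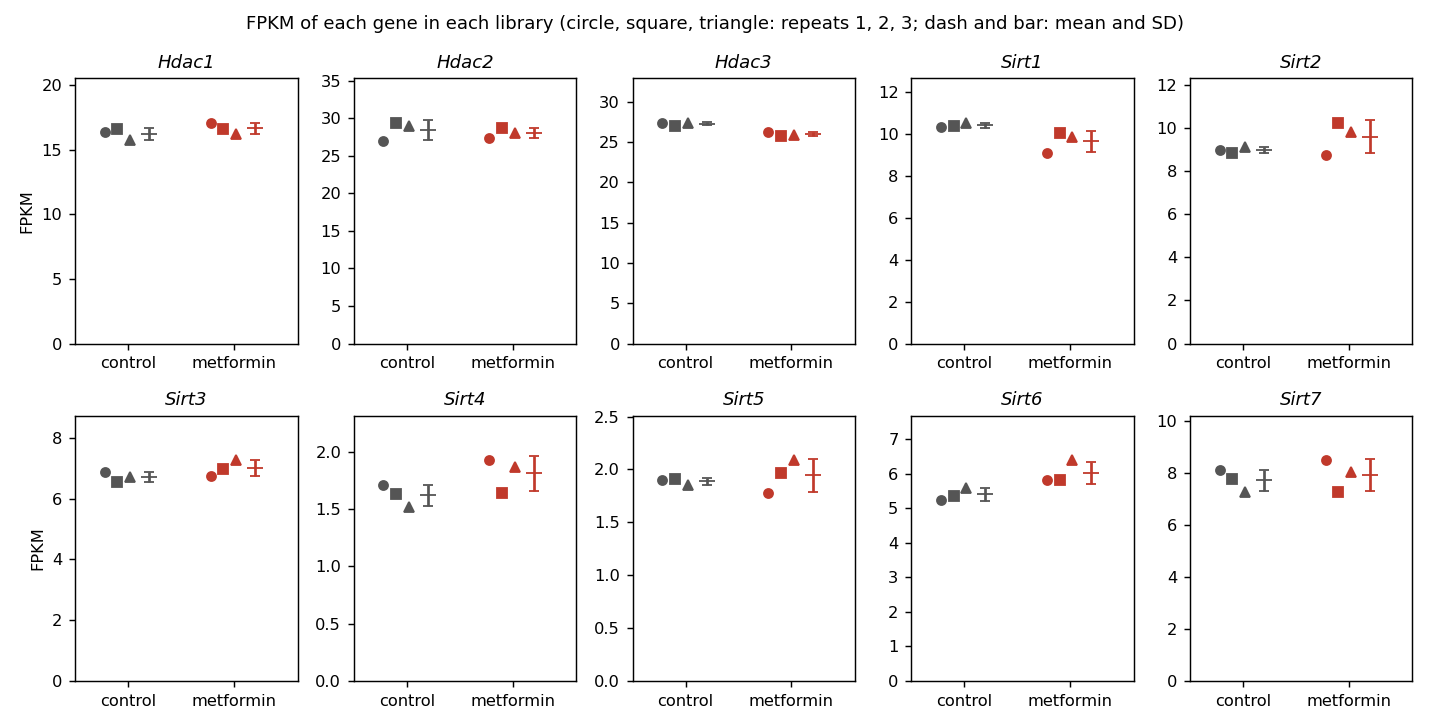
FPKM (vertical axes, each from 0 on its own scale) of each of the 10 genes in the control (grey) and metformin (red) libraries, with circles, squares and triangles for repeats 1, 2 and 3 and a dash with a bar for the mean and SD of 3 libraries. Hdac3 and Sirt1 lie lower and Sirt6 lies higher in every metformin library than in any control library, and the groups overlap for the other genes.

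In the order of levels, Hdac2, Hdac3, Hdac1, Sirt1, Sirt2, Sirt7, Sirt3, Sirt6, Sirt5 and Sirt4 followed each other from the highest to the lowest mean over the 6 libraries. The ranges over the libraries overlapped for 3 pairs of neighbours, Hdac2 and Hdac3, Sirt1 and Sirt2, and Sirt5 and Sirt4. The widest step between neighbours was from Sirt6 to Sirt5, at 2.98-fold. The gene length behind the FPKM is not given in the sources used here. From the mRNA to all annotated exons it goes from 1727 to 5148 bases for Sirt7. For Sirt1 it goes from 4430 to 5331 and for Sirt3 from 1461 to 1570. The order of close neighbours, and of Sirt7 among the sirtuins, therefore depends on the length used. The 7 sirtuins summed to 42.8 ± 0.354 FPKM in control and 44.0 ± 1.33 FPKM in metformin libraries (SD, n = 3 each), and the groups overlapped. The mitochondrial sirtuins made up 10.2 ± 0.231 and 10.8 ± 0.416 FPKM of this, again with overlap.

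Ratios within a library set Sirt1 beside Sirt2 and Sirt6, whose mean FPKM differed in the other direction. The groups of Sirt2 overlapped, and none of these differences passed the test. Both ratios were chosen after the values were seen, so they are given as a description and their permutation p-values are left out. Sirt1 was 1.15, 1.17 and 1.16 times Sirt2 in control libraries 1 to 3, and 1.04, 0.981 and 1.00 times in metformin libraries 1 to 3. Sirt1 over Sirt6 was 1.93 ± 0.0419 in control and 1.61 ± 0.103 in metformin libraries (SD, n = 3 each). The groups did not overlap for either ratio, and for Sirt1 over Sirt6 this follows from the values of the single genes. For Hdac2 over Hdac1 and Hdac2 over Hdac3, also computed, the groups overlapped. How often ratios of other genes separate the groups was not counted.

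In the comparison of metformin with control, 0 of the 10 genes passed an adjusted p of 0.05 in limma, beside 0.0281% of all tested genes. The genes that did pass were Trib3, Chac1 and Ddit3, all higher with metformin. At an unadjusted p under 0.05, Sirt6 was higher and Hdac3 lower, so 2 of 10 beside 10.8% of all tested genes, with 1 of 10 higher beside 6.03% and 1 of 10 lower beside 4.81%. The groups did not overlap for 3 of 10 genes beside 17.0% of all, 1 higher beside 8.89% and 2 lower beside 8.10%. With so few genes, 1 gene more or less moves such a share widely, and these counts lie near the background.

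The sizes were small throughout. The median log2 fold change of the 10 genes was 0.03, against 0.0041 over all tested genes, and the median size regardless of sign was 0.06 against 0.05. The log2 fold change was above 0 for 6 of 7 sirtuins, with Sirt1 the exception, and for Hdac1 but not Hdac2 or Hdac3. On the scale of log2(FPKM + 1), the 95% limma interval of every one of the 10 genes lay within 1.25-fold in either direction. The outer bounds were 0.869-fold for Sirt1 and 1.22-fold for Sirt4. This scale understates changes of low genes, and with a pseudocount of 0.1 the interval of Sirt4 reached 1.35-fold. In bulk libraries fewer cells with a transcript and less RNA per cell cannot be told apart.

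**Figure D3:**
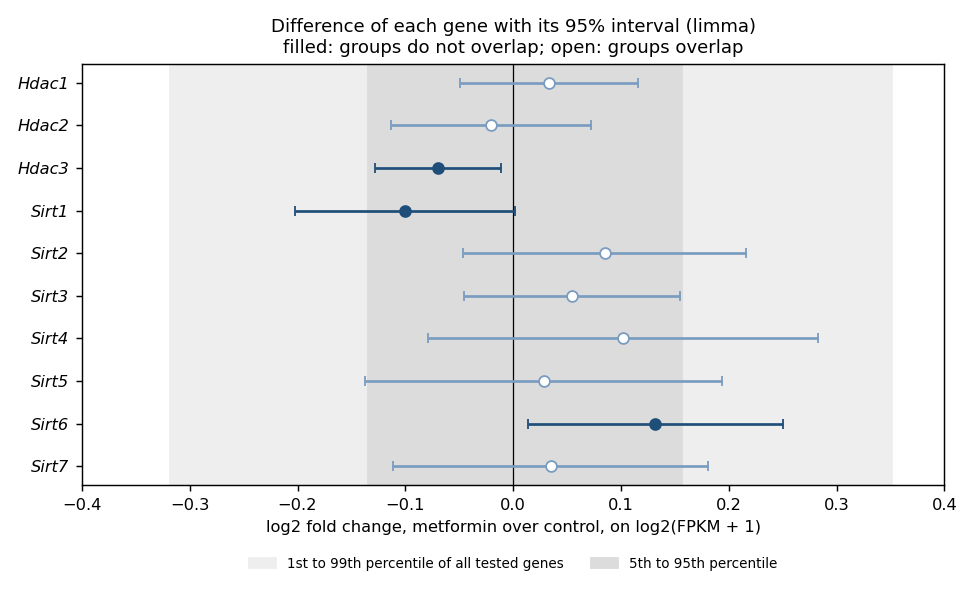
Log2 fold change of metformin over control on the scale of log2(FPKM + 1) (horizontal axis) for each of the 10 genes, with its 95% limma interval, filled where the groups do not overlap, over shading for the 5th to 95th and the 1st to 99th percentiles of all tested genes. All 10 points lie inside the 5th to 95th percentile band, from -0.13 to 0.16, and only the intervals of Hdac3 and Sirt6 leave out 0.

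Promoter sequence is shown for Sirt1 and Sirt6, the sirtuins whose groups did not overlap, which differed in opposite directions. RefSeq windows from 250 bases before to 50 bases after the start (GRCm38.p6) were given for 8 of the 10 genes, 10 windows in all. Sirt1 had the most GC-rich of them, with 79.0% G and C against a median of 52.67% over 32851 promoters, and 47 CpG dinucleotides. Capitals mark the GC box GGGCGG on either strand, 7 times in Sirt1 with 1 pair overlapping, and the E-box CACGTG, 2 times.
Sirt1, chr10:63338986-63339285, minus strand: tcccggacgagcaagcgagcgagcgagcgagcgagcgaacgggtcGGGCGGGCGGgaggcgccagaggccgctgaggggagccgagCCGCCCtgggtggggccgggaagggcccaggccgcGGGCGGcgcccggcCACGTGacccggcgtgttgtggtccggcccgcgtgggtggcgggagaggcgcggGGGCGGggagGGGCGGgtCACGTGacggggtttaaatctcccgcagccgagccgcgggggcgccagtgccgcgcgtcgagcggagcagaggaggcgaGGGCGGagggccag
Sirt6 had 57.33% G and C in the window of its outer start, where capitals mark the NRF1 core CGCATGCG. The window of its inner start, chr10:81627273-81627572, had 61.33% G and C and held 1 GC box and no NRF1 core.
Sirt6, chr10:81627517-81627816, minus strand: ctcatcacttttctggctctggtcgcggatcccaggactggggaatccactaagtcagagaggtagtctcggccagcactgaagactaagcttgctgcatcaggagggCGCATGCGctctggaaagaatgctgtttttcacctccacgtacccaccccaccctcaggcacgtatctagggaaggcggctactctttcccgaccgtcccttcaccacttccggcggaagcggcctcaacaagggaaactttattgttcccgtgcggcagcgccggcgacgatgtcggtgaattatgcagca

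Over the 10 windows, GGGCGG was found in 7 (35.66% of all promoters), CCAAT in 3 (37.41%), CGCATGCG in 2 (1.872%) and CACGTG in 1 (7.15%), searched on both strands. No window held TATAAA (13.62%), the cyclic AMP response element TGACGTCA (1.79%) or the amino acid response element TGATGNAA (3.969%). These are matches of letters in a window and not sites shown to be bound.

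The complexes that carry HDAC1, HDAC2 and HDAC3 were described from lists of their other subunits. Of 45 listed genes 44 were tested, and 0 passed an adjusted p of 0.05 in limma. At an unadjusted p under 0.05, 4 were higher and 1 lower, or 11.4% beside 10.8% of all tested genes, and 9 had groups that did not overlap, or 20.5% beside 17.0%. The median log2 fold change was 0.03 over 13 NuRD genes, 0.0056 over 13 SIN3 genes, -0.0059 over 10 CoREST genes, -0.0064 over 5 NCoR/SMRT genes and 0.09 over 3 MiDAC genes.

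MiDAC, a complex of HDAC1 or HDAC2 linked to mitosis, had 2 of its 3 listed genes at an unadjusted p under 0.05, beside 10.8% of all tested genes, and is described here as the list with the highest such share, seen afterwards, among 10 lists whose joint share was 8.08%. Trerf1 held 5.18, 5.21 and 4.96 FPKM in control and 6.51, 5.7 and 5.54 FPKM in metformin libraries, a log2 fold change of 0.17. Mideas, listed under the older symbol C130039O16Rik, held 10.85, 10.86 and 10.26 FPKM in control and 11.81, 11.26 and 11.26 FPKM in metformin libraries, a log2 fold change of 0.09. All metformin libraries lay above all control libraries for both genes, and their adjusted p-values in limma were 0.392 and 0.450. Dnttip1, the third subunit, had a log2 fold change of 0.02 and overlapping groups.

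In the other complexes, Mbd3, a core NuRD subunit, was at 80.7 ± 1.68 FPKM in control and 87.0 ± 4.19 FPKM in metformin libraries (SD, n = 3 each), and its log2 fold change was 0.11 with an adjusted p of 0.394 in limma. Suds3 of SIN3 had a log2 fold change of 0.10 and Zmym2 of CoREST one of -0.09, and these too did not pass the test, with adjusted p-values in limma of 0.419 and 0.439. The outermost value of the lists was that of Cdk2ap1, a small NuRD subunit, at -0.33, with 39.99, 36.17 and 32.76 FPKM in control and 22.42, 29.51 and 34.87 FPKM in metformin libraries. Its groups overlapped at metformin library 3, and its adjusted p in limma was 0.472. The remaining extremes of the lists were -0.11 for Arid4a of SIN3, 0.09 for Hmg20b of CoREST, and -0.03 for Tbl1x and 0.06 for Gps2 of NCoR/SMRT. The scaffolds Sin3a and Ncor1 and the demethylase Kdm1a had log2 fold changes of 0.0056, -0.02 and 0.00065.

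Among the other zinc-dependent deacetylases, 5 of 8 were tested, 0 passed the test in limma and 0 had an unadjusted p under 0.05. Their mean levels, from 1.59 to 7.06 FPKM, lay below those of Hdac1, Hdac2 and Hdac3. Hdac8, which is also of class I, is among them. The median log2 fold change was -0.02, between -0.10 for Hdac4 and 0.06 for Hdac5. Hdac7 and Hdac9 stayed under a mean of 1 FPKM, and Hdac11 was listed at 0 in all 6 libraries.

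Genes that supply and use NAD+, the co-substrate of sirtuins, were tested for 10 of 18 listed, with a median log2 fold change of -0.02 and 0 past the adjusted threshold in limma. Nmnat1, the nuclear enzyme of the last step of NAD+ synthesis, held 4.03, 3.77 and 4.64 FPKM in control and 3.78, 3.39 and 3.41 FPKM in metformin libraries. The groups overlapped narrowly, and the log2 fold change was -0.18 with an unadjusted limma p of 0.0450 over the moderated fit across genes and an adjusted p of 0.452. Nampt, the rate-limiting enzyme of the salvage route, was at 29.6 ± 0.365 FPKM in control and 28.7 ± 1.12 FPKM in metformin libraries (SD, n = 3 each), with a log2 fold change of -0.04. Nadsyn1, which makes NAD+ from its acid precursor, had the highest value of the list, 0.13.

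Partners and substrates of SIRT1 and SIRT2 were tested for 12 of 14 listed, with a median log2 fold change of -0.0023 and 0 past the adjusted threshold in limma. Crtc2, a coactivator of CREB, had a log2 fold change of 0.13 and an adjusted p of 0.450. Values of 0.14 for Rela, the p65 subunit of NF-κB, and -0.07 for Hif1a, the hypoxia-inducible factor, were the extremes of the list. Substrates of the mitochondrial sirtuins were tested for 13 of 16 listed, with a median of -0.0094, extremes of 0.07 for Mrpl10 and -0.05 for Acss1, and 0 with an unadjusted p under 0.05.

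The opposing enzymes, the histone acyltransferases, were tested for 16 of 16 listed, and 0 passed the adjusted threshold in limma. Clock, the circadian transcription factor with acetyltransferase activity, held 3.41, 3.23 and 3.48 FPKM in control and 2.95, 2.83 and 2.93 FPKM in metformin libraries. All metformin libraries lay below all control libraries, and the log2 fold change was -0.16 with an adjusted p of 0.377 in limma. The largest positive value was 0.08 for Crebbp, and Ep300, its paralog, had -0.0011. Over all 10 lists, 99 of 116 genes were tested, 5 were higher and 3 lower at an unadjusted p under 0.05, or 8.08% beside 10.8% of all tested genes, and 14 had groups that did not overlap, or 14.1% beside 17.0%.

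**Figure D4:**
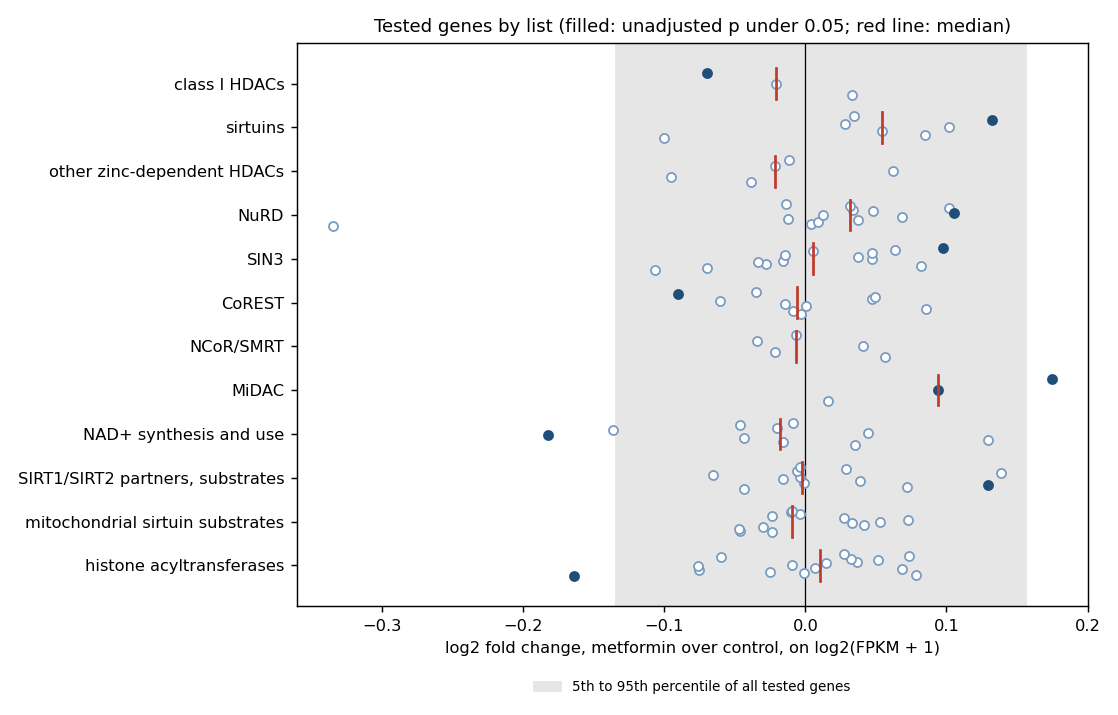
Log2 fold change of metformin over control on the scale of log2(FPKM + 1) (horizontal axis) for every tested gene of the class I and sirtuin families and of 10 lists of related genes (rows), filled where the unadjusted limma p was under 0.05, with a red line at the median of each list and shading for the 5th to 95th percentile of all tested genes. Most points lie inside the shading, and 5 lie outside it, Cdk2ap1 at -0.33, Nmnat1 at -0.18, Clock at -0.16, Nmrk1 at -0.14 and Trerf1 at 0.17.

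The genes whose log2(FPKM + 1) followed each of 4 members most closely over the 6 libraries were ranked by Pearson's r among 10660 genes, as a description over few libraries. For Hdac1 they were Haus8 (r = 0.994), Osbpl5 (r = 0.980) and Bloc1s1 (r = 0.978), and for Hdac2 they were Ppp4r2 (r = 0.988), Tmem140 (r = 0.979) and Ssna1 (r = 0.973). Sirt1 was followed by ENSMUSG00000113428 (r = 0.995), Mre11a (r = 0.994) and Avl9 (r = 0.994). Sirt2 was followed by Ccar2, listed as 2610301G19Rik (r = 0.983), Fam63a (r = 0.978) and Trim71 (r = 0.974). Between 19 and 49 of the 10660 genes exceeded an r of 0.95 for each member, so the genes named are not alone in following a member this closely.

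Markers of the labelled cell type were scarce in these libraries. None of 6 germ cell markers reached a mean of 1 FPKM, and Pou5f1, Dppa3 and Dazl were listed at 0 in all 6 libraries. Fibroblast markers, which the feeder cells would carry, summed to 0.49 to 0.77 FPKM in control and 0.54 to 0.64 FPKM in metformin libraries, with 0 of 10 at a mean of 1 FPKM, and 1 of 6 markers of somatic ovarian cells reached it. All 10 blood cell markers reached it, and they summed to 873.29 to 883.5 FPKM in control and 901.78 to 918.02 FPKM in metformin libraries, without overlap between the groups. The markers went both ways, with a higher mean in metformin libraries for 7 and a lower one for 3, Ptprc, Cd53 and Spi1, and 0 of 10 passed an adjusted p of 0.05 in limma. Gata2, the gene in the title of the series, made up 16.8 of the 34.0 FPKM by which the mean sums differed. Without it the sums were 618.68 to 622.44 FPKM in control and 628.44 to 644.59 FPKM in metformin libraries, again without overlap. The part of this difference in the values of Hdac3, Sirt1 and Sirt6 was not tested.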

How the data were processed

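RNA-seq of 3 control and 3 metformin libraries was analysed. The authors deposited FPKM values, rounded to 2 decimals, for 55401 Ensembl genes, with positions that are those of GRCm38. The submitters' processing notes name HISAT2, DESeq2 and mm9. The counter, the annotation and the use of strand are not given in the sources used here, and the labels and the paper name different library kits, of which the labels' is stranded. No per-sample column was left unused (0 columns). Symbols were found for 32589 genes, 10029 of the 10661 tested.

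Depth was estimated from the FPKM step of 1 fragment on single-exon genes shorter than 400 bp. It gave 13410000 to 14030000 fragments per library, so that 3 fragments on 1 kb are worth 0.214 to 0.224 FPKM, a limit that covers counting error only. Total FPKM ranged from 317332 to 320754, and no pair of libraries shared more than 1.48% of its values.

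Genes that reached 1 FPKM on average over the 6 libraries were tested on log2(FPKM + 1) with limma 3.58.1 (R 4.3.3; eBayes with trend, two-sided, no block), with Benjamini-Hochberg adjustment over all tested genes and a threshold of 0.05. Changes of low genes are understated on this scale. Single genes were also compared by exact permutation (scipy 1.17.1). The fit was repeated with all genes above 0 or those with a mean of 10 FPKM, a pseudocount of 0.1, rescaling to the same sum, quantile normalization, centring on the median, no trend, the replicate block, each library left out, and, added after seeing the data, the fragments of Gm10093 added to Hdac1. The fit was tested on simulated data. Copies were searched with BLAST 2.17.0 in NCBIM37. Other tools were Python 3.11.15, pandas 2.3.3 and matplotlib 3.10.9.

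Members and lists were chosen with earlier results of these data known. Named genes were the 10 members, the extremes of each list, listed genes at an unadjusted p under 0.05, genes that overlap a member, and the 3 genes most like each of Hdac1, Hdac2, Sirt1 and Sirt2. Nampt, Sin3a, Ncor1, Kdm1a, Ep300, Hdac7, Hdac9 and Hdac11 were added after their values were seen.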

Additional observations from a re-analysis of the deposited data

How the results depend on the processing

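Of the 10 genes, 0 passed an adjusted p of 0.05 in limma under any of the 15 alternatives. Testing every gene above 0 in at least 1 library raised the count over all genes from 3 to 7, 4 higher and 3 lower with metformin. Signs turned, near 0, where a library was left out. The log2 fold change then ranged from -0.0583 to 0.00283 for Hdac2, from -0.00657 to 0.0697 for Sirt5 and from -0.0108 to 0.0891 for Sirt7. The same ranges, without a change of sign, were 0.0108 to 0.0501 for Hdac1, 0.0409 to 0.143 for Sirt2, 0.0295 to 0.0763 for Sirt3 and 0.0719 to 0.147 for Sirt4. The cause was not tested. Hdac3 and Sirt1 stayed below 0 and Sirt6 stayed above 0 in every alternative that tested them, 15, 15 and 14 in number, at -0.08 to -0.06, -0.13 to -0.06 and 0.09 to 0.15. The filter at a mean of 10 FPKM left out the sirtuins other than Sirt1.

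With the repeat number as a replicate block, 0 of the 10 genes and 2 of all tested genes passed, and the lowest adjusted p of the 10 genes was 0.486. Libraries with the same number had a mean correlation of deviations of 0.0114 (-0.0317 to 0.0479) across genes, against -0.0057 for different numbers. They share only a number. At this depth the spread from counting limits Sirt4 and Sirt5 most.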
